A study of Homo sapiens with 16 samples.

Results

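The response of the parental lung adenocarcinoma line A549 to cisplatin was read from 4 of the 16 libraries of the series: 2 of untransfected cells in cisplatin and 2 in its solvent, chosen by their labels. A549 is an established human line of lung epithelial origin. Per the labels' protocols, 35000 cells per well were seeded overnight in DMEM with fetal bovine serum, kept as an unsynchronized population, and given cisplatin at a labelled 15 mM or solvent alone for 24 h. That unit follows the labels and could not be checked here. No library used here received a gapmer, the antisense oligonucleotide of the transfected samples. Where a second response is set beside that of A549, it is the response of untransfected A549/cDDP, a cisplatin-resistant derivative kept in medium with the same labelled 15 mM cisplatin between experiments and treated alike for 24 h, again with 2 libraries in cisplatin and 2 in solvent. All libraries are of mRNA enriched on oligo(dT) beads.

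Cisplatin binds purine bases and joins them within and between DNA strands. The lesions stall replication forks and RNA polymerase, which sets off damage kinases, the transcription factor p53, cell cycle arrest, repair and, where damage is heavy, cell death. Damaged epithelial cells can also turn on inflammatory, interferon and differentiation genes.

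Levels are in FPKM: fragments divided by gene length and by the library's total. Changes are differences of group means on the scale log2(FPKM + 0.5), which understates the change of low genes. Genes "rose" or "fell" where limma's adjusted p was below 0.05. Whether replicates came from separate cultures is not in the labels, and a p-value here covers no more than the spread from library to library, which may be technical. In bulk RNA, fewer cells of a kind and less RNA per cell cannot be told apart.

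The 4 A549 libraries held between 35190000 and 36900000 fragments, within the range of 31350000 to 43140000 over all 16. Replicates correlated across genes at 0.9955 in solvent and 0.995 in cisplatin. The label was checked against markers: the epithelial keratin KRT7 stood at 4101 and 4179 FPKM in solvent and at 3266 and 3271 in cisplatin, and AKR1B10, an aldo-keto reductase abundant in A549, at a mean of 4334 and 5304. The lung lineage factor NKX2-1 was at 0 in all 4 libraries. Of 14 lung epithelium markers tested, 3 rose and 9 fell (median log2 change -0.34). CDKN2A, CDKN2B and MTAP, which A549 is known to have lost, stayed at or below 0.399 FPKM. Of 17 markers of other lineages, 14 stayed below 1 FPKM in all 4 libraries, and their summed level was 12 and 13.5 FPKM in solvent and 10.6 and 11.3 in cisplatin, most of it COL1A1. CDKN1A, the cell cycle inhibitor p21 and a textbook p53 target, was at 84.1 and 84.3 FPKM in solvent, 1636 and 1611 in cisplatin (log2 change 4.26, limma adjusted p = 7.77e-17). MDM2, the ubiquitin ligase that degrades p53, went from 56.8 and 58.6 to 818 and 803 FPKM (log2 change 3.80).

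The response was broad. Of 17198 genes tested, 10393 passed (60.4%), 5729 higher (33.3%) and 4664 lower (27.1%). Most of these changes were small: 5734 of the called genes (55.2%) moved by less than 1.5-fold, and the median absolute log2 change of called genes was 0.53. At least 2-fold changes were seen in 1258 higher genes (7.31%) and 857 lower genes (4.98%), at least 4-fold in 321 and 155, and at least 8-fold in 93 and 18. Of the 17198 genes, 133 passed the level filter only through the A549 cisplatin libraries, so a rise in them is no test. Without them 5639 of 17065 genes rose and 4662 fell. The libraries of both groups did not overlap for 13863 genes (80.6%), so lack of overlap alone says little about a gene. The median log2 change of all genes was 0.06 on the deposited scale, 0.003 with median ratio scaling and -0.017 with quantile normalization. With these scalings 5062 and 4762 genes were higher and 5328 and 5224 lower, so the share of calls that were higher went from 55.1% to 48.7% and 47.7%. Of the lists below, 11 had medians that took both signs over the 3 scalings: Notch, RNA polymerase II, SOX/HOX/GATA, chromatin, collagen and laminin, cytochrome P450, fatty acid, ion channel, mitochondrial ribosomal, nuclear receptor and proteasome genes. All of these medians lay within 0.1 of 0 in each scaling, and no direction is given for them. The counts of each list below are to be read beside the shares of all genes, 33.3% higher and 27.1% lower. Among coding genes these shares were 36.6% and 32.7%. Several lists, ion channel genes among them, lie near the shares of all genes.

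**Figure D1:**
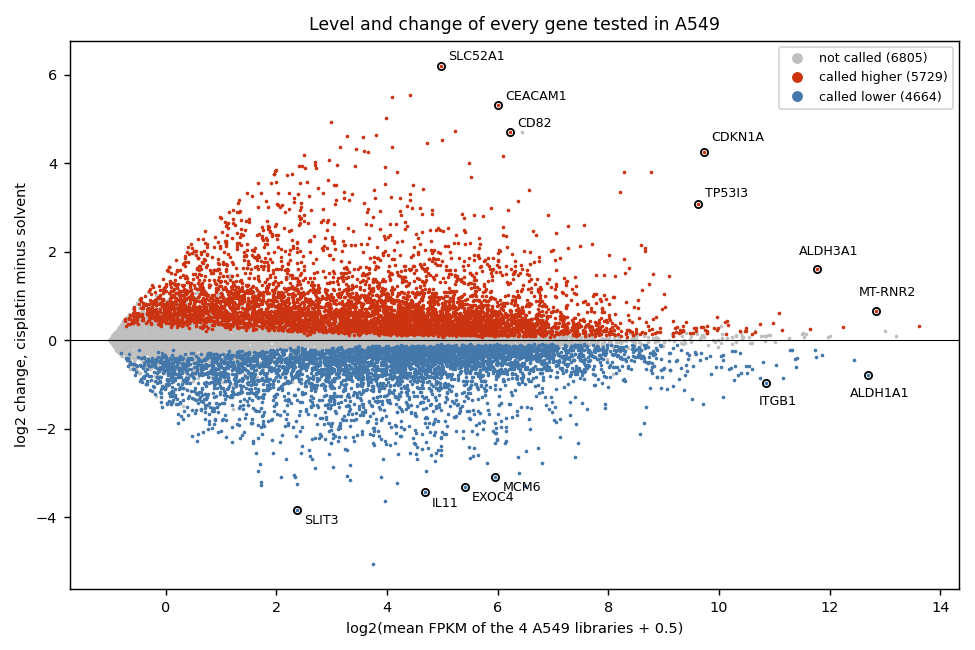
Each point is one of the 17198 genes tested, with its mean level over the 4 A549 libraries on the x axis (log2 of FPKM + 0.5) and its log2 change, cisplatin minus solvent, on the y axis; red genes were called higher, blue lower, grey neither. Changes of at least 8-fold lie mostly at low and middle levels, while ALDH1A1 and ALDH3A1, among the most abundant genes, moved in opposite directions.

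A row of late cornified envelope genes, silent in solvent, was read in cisplatin. These genes encode small proteins of the outer layers of the epidermis and lie side by side on chromosome 1 (hg38, chr1:152510844-153460701, GENCODE 29) with 44 coding genes in all. LCE1F stood at 0 in each solvent library and at 15.5 and 14.2 FPKM in cisplatin, at least 127-fold higher against the level that 3 reads over the solvent group would give. LCE1E was at 0 and 0 against 5.05 and 4.1 FPKM (at least 142-fold), and LCE1C at 0 and 0 against 5.39 and 5.32 (at least 88.7-fold). LCE1B, below the level filter and so not tested, stood at 0 and 0 against 1.45 and 1.97 FPKM (at least 46.6-fold). LCE1A and LCE1D stayed at 0 in all 4 libraries. Of the 44 genes, 29 were at 0 in every A549 library, 8 were higher in both cisplatin libraries than in both solvent libraries, and 0 showed the reverse. Only 3 of the 44 were tested, and over all genes tested the groups did not overlap for 80.6%. Outside the LCE1 genes, those among the 8 were very low. Their cisplatin means were 0.0366 FPKM for SPRR3, 0.0632 for IVL, 0.1 for C1orf68 and 0.845 for LCE3D. The LCE1 genes are near-identical copies, so the split of reads between them is uncertain. The 3-read floors cover counting error only, since copies of 1 molecule made by PCR are not independent.

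The stretches before the starts of the 3 tested LCE1 genes are shown because the genes came on together. Each is the 250 bases before the RefSeq start (GRCh38.p14), printed 5′ to 3′ on the gene's strand. Capitals mark runs of at least 12 bases that all 3 hold. They lie at chr1:152806652-152806901 (minus strand, LCE1C), chr1:152786007-152786256 (plus strand, LCE1E) and chr1:152774890-152775139 (plus strand, LCE1F).
LCE1C: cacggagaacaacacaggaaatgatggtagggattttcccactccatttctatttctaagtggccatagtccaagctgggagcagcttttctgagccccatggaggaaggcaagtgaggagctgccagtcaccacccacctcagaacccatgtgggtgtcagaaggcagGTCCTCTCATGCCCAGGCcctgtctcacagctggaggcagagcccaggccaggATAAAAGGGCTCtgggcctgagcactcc
LCE1E: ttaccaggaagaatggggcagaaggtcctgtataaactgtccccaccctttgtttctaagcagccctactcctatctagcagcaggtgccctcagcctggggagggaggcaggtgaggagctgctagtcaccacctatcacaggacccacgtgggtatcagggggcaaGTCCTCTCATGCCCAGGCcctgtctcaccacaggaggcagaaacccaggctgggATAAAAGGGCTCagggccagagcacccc
LCE1F: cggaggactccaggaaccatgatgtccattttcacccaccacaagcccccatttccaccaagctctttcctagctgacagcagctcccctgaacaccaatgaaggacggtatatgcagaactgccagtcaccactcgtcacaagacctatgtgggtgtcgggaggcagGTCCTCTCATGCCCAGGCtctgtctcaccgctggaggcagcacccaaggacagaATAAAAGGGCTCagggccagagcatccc
All 3 share 2 such runs, the longer of 18 bases. Over the whole 250 bases, pairs of these stretches were identical at between 68.8% and 74.8% of positions. Shared letters describe copies of a gene family and say nothing of which factor, if any, acts there.

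Of the 51 genes of the cornified envelope and squamous list, 18 were tested. LCE1C, LCE1E and LCE1F passed the level filter only through the cisplatin libraries where they are high, so they had to differ. Of the other 15, which pass it in the 14 libraries other than A549 in cisplatin, 11 rose and 1 fell, with a median log2 change of 0.82 against 0.05 over all genes filtered that way; this filter was chosen after seeing the data. GRHL3, a transcription factor of epidermal barrier formation, went from 0.401 and 0.494 FPKM to 23 and 21.9 (log2 change 4.60, limma adjusted p = 9.95e-11). All of its cisplatin values lay far above its solvent values. By contrast TP63, the p63 gene of basal epithelial cells, fell from a mean of 2.3 to 0.492 FPKM (log2 change -1.50). KRT19, a keratin of simple epithelia, rose from 90.5 and 91 to 241 and 251 FPKM (log2 change 1.43).

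The largest rises among genes of at least 5 FPKM were spread over transport, adhesion and signalling. SLC52A1, a riboflavin transporter, went from 0.334 and 0.348 FPKM in solvent to 63.2 and 60.1 in cisplatin (log2 change 6.21, SE 0.13, limma adjusted p = 2.6e-12). Its mean was below the 0.5 FPKM of the level filter in A549 solvent (0.341) and in A549/cDDP (0.241 in solvent, 0.296 in cisplatin). Its p-value therefore leans on the group where it is high. Its solvent level was close to 0 in both libraries and its cisplatin level within a few FPKM between them. GRIN2C, a subunit of the NMDA-type glutamate receptor, went from 0.209 and 0.27 to 34 and 31.7 FPKM (log2 change 5.49). HES2, a repressor of the hairy and enhancer-of-split family, went from 0.489 and 0.403 to 29.9 and 30.7 FPKM (5.03). YPEL3, a small zinc-binding protein gene, went from 2.54 and 1.84 to 61.1 and 59.9 FPKM (4.52). The replicates of each of these genes lay close together in comparison with the gap between groups. C2orf88, which encodes an anchoring protein of protein kinase A, went from 0.331 and 0.9 to 26.8 and 26.1 FPKM (4.64), although its gene spans 323876 bp. The noncoding RNA LINC01629 went from 0.235 and 0.293 to 17.3 and 19.1 FPKM (4.61).

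**Figure D2:**
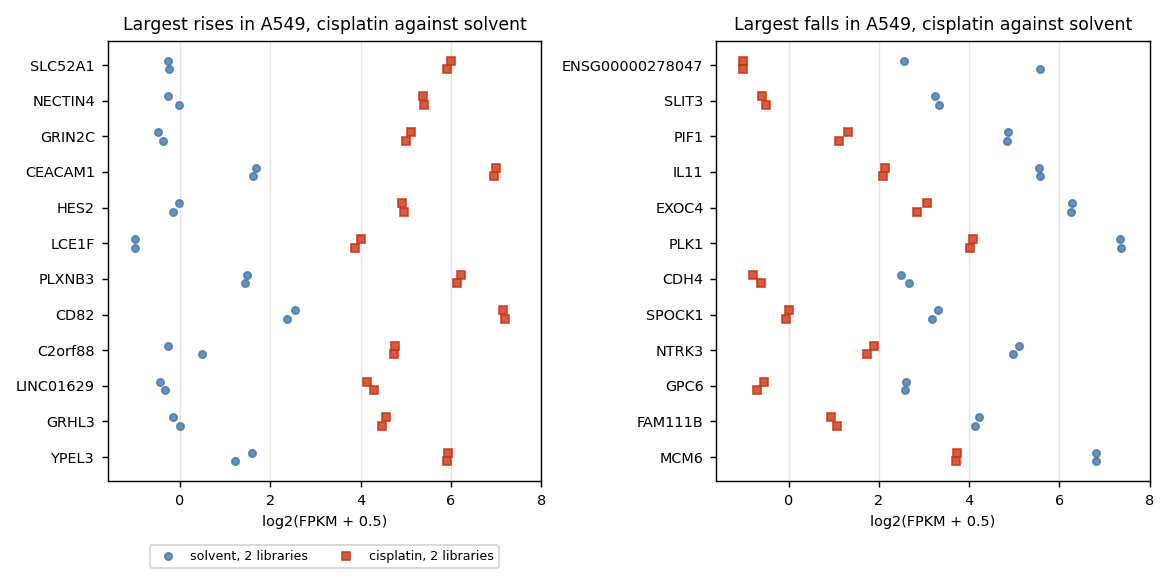
The 12 largest rises (left) and 12 largest falls (right) among called genes whose libraries do not overlap and whose higher group reaches 5 FPKM, each library as a point on a log2(FPKM + 0.5) axis; blue circles are solvent, red squares cisplatin. The 2 libraries of a group sit together except for ENSG00000278047, at 5.34 and 46.6 FPKM in solvent.

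Cell surface adhesion was remodelled gene by gene, not as a whole. Of 23 nectins, CEACAMs and other immunoglobulin adhesion genes tested, 9 rose and 9 fell (median -0.06). NECTIN4, an adhesion receptor of embryonic and tumour epithelium, went from 0.338 and 0.482 FPKM to 41.2 and 42 (log2 change 5.54, limma adjusted p = 1.38e-12). CEACAM1, a carcinoembryonic antigen-related adhesion molecule, went from 2.7 and 2.57 to 127 and 123 FPKM (5.32). Both receptors had cisplatin libraries within 5 FPKM of each other. ICAM1, the leukocyte ligand, rose from 0.807 and 1.57 to 10 and 9.59 FPKM (2.65), whereas L1CAM, a neural adhesion molecule, fell from 9.21 and 9.36 to 3.02 and 3.09 (-1.46). Among 27 tetraspanins, which organize membrane domains, 8 rose and 10 fell. The metastasis suppressor gene CD82 led them, at 5.36 and 4.65 FPKM in solvent and 142 and 146 in cisplatin (4.71, limma adjusted p = 1.46e-12). TSPAN1 (2.67) and TSPAN10 (2.13) rose as well, and UPK1B, a uroplakin, fell (-1.14).

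Integrins, cadherins and junction genes split likewise. Of 22 integrins 7 rose and 9 fell, with ITGB6, the epithelial beta chain, down from 6.93 and 6.63 to 1.49 and 1.48 FPKM and ITGAM, a chain better known from myeloid cells, up from 4.08 and 5.06 to 14.1 and 14.5. ITGB1, the most widely shared beta chain, was among the 5 largest losses of FPKM, from 2467 and 2447 to 1262 and 1244 (log2 change -0.97, limma adjusted p = 7.7e-10). Of 31 cadherins and protocadherins 7 rose and 9 fell. CDH4 (R-cadherin) went from 5.1 and 5.83 to 0.0764 and 0.157 FPKM (-3.27), while CDH3 (P-cadherin) went from 0.0357 and 0.149 to 4.19 and 3.81 (2.93). The directions of these paired family members were opposite with no overlap of libraries. Of 27 tight junction and desmosome genes 11 rose and 7 fell: the pore-forming claudin CLDN2 dropped from 44.5 and 41.1 to 8.97 and 7.47 FPKM, while the desmosome genes JUP and DSP rose by 1.16 and 0.86 on the log2 scale.

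Guidance genes held steep changes in both directions. Of 48 tested genes of the slit, semaphorin, plexin, netrin and ephrin families 18 rose and 16 fell, 8 of each at least 2-fold. PLXNB3, a semaphorin receptor, went from 2.28 and 2.21 to 74.7 and 69.7 FPKM (log2 change 4.73); 20.4% of its exon bases overlap SRPK3 on the same strand, which reached at most 1.54 FPKM. The netrin gene NTN1 rose from 0.107 and 0.154 to 2.9 and 3.01 FPKM (2.45). SLIT3, a secreted guidance ligand, fell furthest, from 8.95 and 9.54 to 0.163 and 0.208 FPKM (-3.83, limma adjusted p = 1.29e-11), and the ephrin receptor EPHB2 fell from 31.2 and 30.5 to 6.35 and 6.66 (-2.16).

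Of 21 receptor tyrosine kinases tested, 7 rose and 10 fell, against 33.3% and 27.1% of all genes. The 3 that changed at least 2-fold all fell. NTRK3, the neurotrophin-3 receptor, went from 33.8 and 31 to 3.2 and 2.82 FPKM (log2 change -3.23, limma adjusted p = 5.38e-10). FGFR1 fell from 67.7 and 70.2 to 34 and 33.4 FPKM. Ligands and brakes of the EGF receptor moved both ways, 5 of 13 up and 6 down, with the ligand genes HBEGF (1.33) and TGFA (1.01) higher and EREG (-0.70) and the receptor brake LRIG1 (-0.75) lower.

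The Wnt list had the lowest median of all lists of at least 10 genes, -0.41, with 12 of 35 genes higher and 19 lower, and it stayed between -0.46 and -0.47 with both other scalings. Without 1 Wnt gene that passed the level filter only through the A549 cisplatin libraries, 11 of 34 rose and 19 fell (median -0.43). The largest single changes of the list were mixed. The ligand WNT4 rose from 0.229 and 0.238 to 4.1 and 4.42 FPKM (log2 change 2.70). Its means in A549/cDDP, 0.464 in solvent and 0.664 in cisplatin, were near the 0.5 FPKM of that filter, so its call may lean on the A549 cisplatin libraries. The Wnt inhibitor NKD2 rose from 4.42 and 4.64 to 26.3 and 24.3 (2.36), and the secreted Wnt antagonist SFRP1 fell from 12.9 and 12.6 to 2.35 and 1.96 (-2.32). In the TGF-beta and BMP list 13 of 44 rose and 20 fell, 1 and 8 of them at least 2-fold. The ligand gene BMP6 fell from 2.68 and 3.27 to 0.276 and 0.253 FPKM, and LTBP1, which holds latent TGF-beta in the matrix, fell from 13.4 in both libraries to 3.06 and 2.85. TGFBR1, the type I receptor, rose from 25.2 and 26.8 to 62.1 and 66.4 FPKM. Notch genes were balanced at 11 up and 9 down of 26, with HES1 lower (12.1 and 10.7 to 4.52 and 3.81 FPKM) beside the rise of HES2.

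Immune genes moved mostly one way. Of 37 chemokines and cytokines tested 25 rose and 4 fell, with a median log2 change of 0.89; 16 rose at least 2-fold. The T cell chemokine gene CCL5 went from 0.443 and 0.487 to 7.72 and 9.38 FPKM (3.22), CCL20 from 0.62 and 0.76 to 8.77 and 9.56 (3.02), and IL1B, the interleukin-1 beta gene, from 0.247 and 0.354 to 5.94 and 5.92 (3.01). In all of these the solvent libraries were below 1 FPKM. IL11, a cytokine of the interleukin-6 family, ran against the list, from 46.3 and 46.7 FPKM to 3.87 and 3.78 (-3.44, limma adjusted p = 6.36e-13), and was the largest fall of the list.

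Antigen presentation genes were mostly higher: 23 of 32 passed upward, 1 downward, with a median of 0.59. TAP1, the peptide transporter that loads MHC class I, went from 15.1 and 14.6 to 69.2 and 68.6 FPKM (2.18). ICOSLG, a T cell costimulatory ligand, ULBP2, a ligand of the natural killer receptor NKG2D, and the TNF family ligand CD70 rose by 2.11, 1.99 and 1.98 on the log2 scale. The inducible proteasome subunits PSMB8 (13 and 12 to 39 and 40.2 FPKM), PSMB10 and PSMB9 made up 3 of the 5 members of the proteasome list that rose at least 2-fold, of whose 46 genes 12 rose and 9 fell. These subunits are members of the antigen presentation list too.

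The interferon list stood at a median of 0.50, with 27 of 46 genes higher and 3 lower; with quantile normalization 20 were higher and the median was 0.36. TRIM22, an antiviral ubiquitin ligase, went from 0.707 and 0.908 to 12.7 and 12.4 FPKM (3.33), the ubiquitin-like modifier ISG15 from 5.28 and 4.58 to 31.5 and 37.1 (2.68), and the DNA sensor IFI16 from 0.959 and 1.01 to 8.93 and 8.75 (2.65). IRF1, a transcription factor of this response, rose from 10.3 and 12.6 to 41.8 and 42.4 FPKM; IRF1-AS1, at 1.51 FPKM at most, overlaps 22.0% of its exon bases. IFNB1, the interferon beta gene, was at 0 in all 4 libraries, and IFNE, another type I interferon, rose from 1.04 and 1.21 to 3.61 and 3.1 FPKM (1.25).

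Of 40 acute phase, complement and coagulation genes 15 rose and 10 fell (median 0.16). Without 2 members that passed the level filter only through the cisplatin libraries, 13 of 38 rose and 10 fell (median 0.08). The serum amyloid genes SAA1 (0.525 and 1.05 to 22.1 and 25 FPKM) and SAA2 (0.118 and 0.0821 to 3.49 and 3.05) are close copies, so reads may be shared between them. HPX, the heme-binding protein hemopexin, rose from 0.429 and 0.65 to 8.47 and 8.44 FPKM (3.12), and PLAT, tissue plasminogen activator, from 1.52 and 1.74 to 9.67 and 9.51 (2.24). Among phosphatases of the dual specificity family, which switch off MAP kinases and other substrates, 11 of 19 rose and 3 fell (median 0.30). DUSP14 went from 21.7 and 21.3 to 112 and 115 FPKM and DUSP5 from 29.5 and 29.4 to 90.9 and 91.5.

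**Figure D3:**
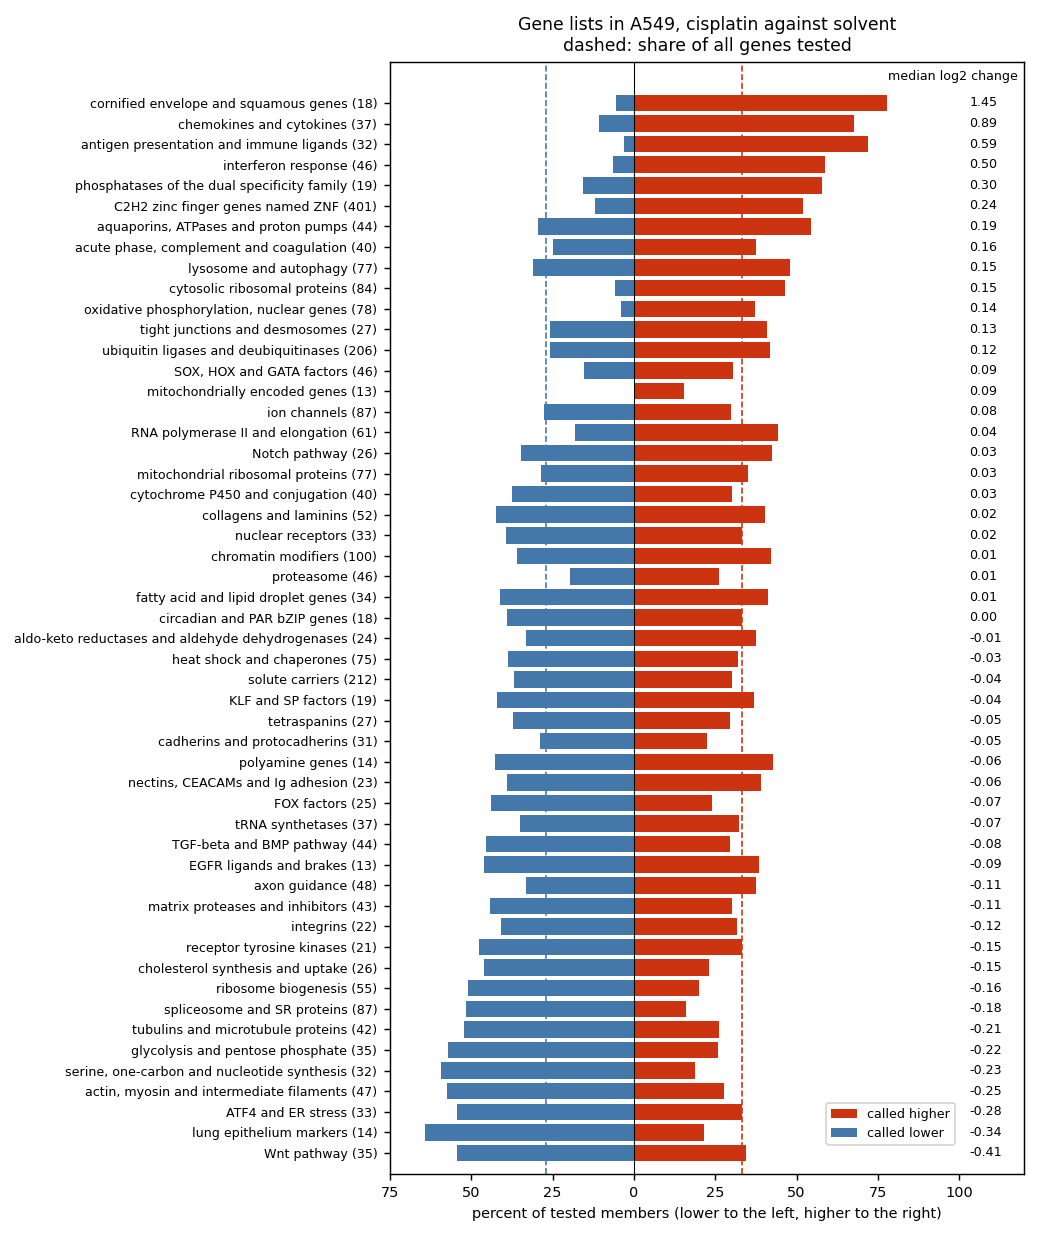
For the gene lists described here with at least 10 tested members (number in brackets), bars give the percent of members called higher (right, red) and lower (left, blue) in A549, with the median log2 change printed at the right; dashed lines mark the shares of all genes tested, 33.3% and 27.1%. Squamous, cytokine, antigen presentation and interferon lists lie at the top with medians of 0.50 to 1.45 (the 18 squamous genes include 3 that passed the level filter only through cisplatin), and the Wnt list at the bottom with -0.41.

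A few genes were read from 0 outside these families. BLNK, an adaptor protein of B cell receptor signalling, stood at 0 in both solvent libraries and at 4 and 4.09 FPKM in cisplatin (at least 354-fold). CD79B, a chain of that receptor, stood at 0 and at 1.5 and 1.67 FPKM (at least 78.9-fold), TREM2, a myeloid receptor, at 0 and at 1.55 and 1.42 (at least 39-fold), and the noncoding RNA UCA1 at 0 and at 1.22 and 1.08 (at least 114-fold). TNNI2, a troponin, and CIBAR2 were likewise at 0 and then above 1 FPKM. CD79B, TREM2, UCA1, TNNI2 and CIBAR2 were below the level filter and so not tested. These genes, BLNK included, were picked as 0 in both solvent libraries and at least 1 FPKM in both cisplatin libraries. Their gaps between groups follow from that choice and are no test. Whether other B cell or myeloid genes moved with them was not tested. In the other direction only small RNA genes and ENSG00000278047, an identifier without a gene model in GENCODE 29, were at 0 in both cisplatin libraries after at least 1 FPKM in both solvent libraries; at 5.34 and 46.6 FPKM the solvent libraries of the latter stood far apart (limma adjusted p = 0.0259).

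Falls were most frequent among the longest genes. The 12966 coding genes tested were cut into 10 bins by genomic span, from start to end in GENCODE 29. The median log2 change was 0.09 in the shortest bin (up to 5.79 kb), 0.13 in the third, 0.04 in the seventh, -0.08 in the ninth and -0.35 in the longest (161 to 2170 kb). In the longest bin 60.1% of genes fell and 18.8% rose, against 23.9% and 34.7% in the shortest. Falls of at least 2-fold made up 20.4% of the longest bin and between 2.85% and 6.33% of each of the others, so that 264 of the 771 coding genes with such a fall (34.2%) lay in that bin. Among genes below 17.1 FPKM the median was 0.16 in the shortest bin and -0.45 in the longest, and among genes above that level it was 0.05 and -0.18. What lies behind the relation with span was not tested. In A549/cDDP, the medians ran from 0.04 in the shortest bin to -0.11 in the longest.

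**Figure D4:**
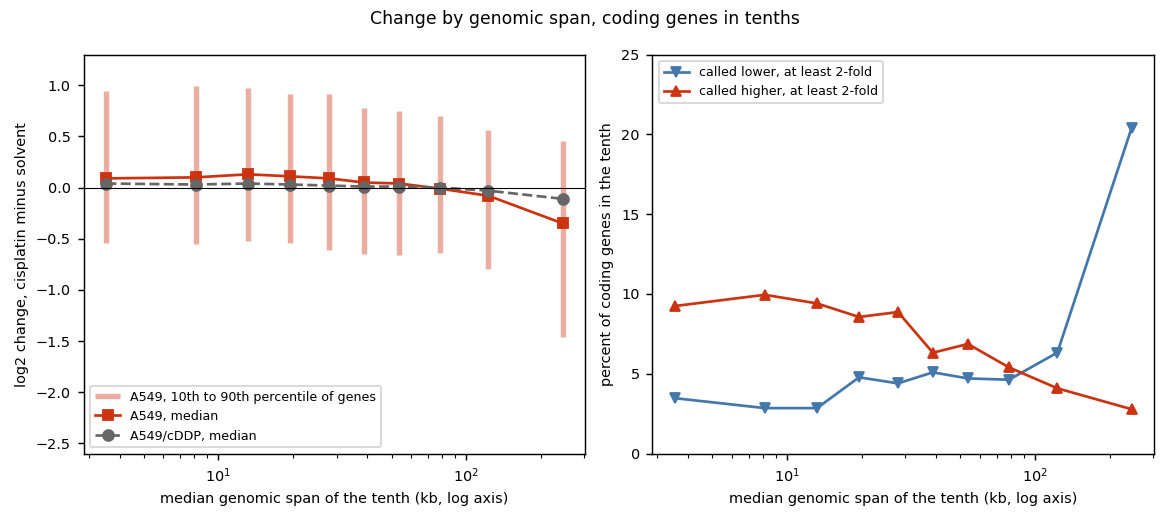
Coding genes in 10 bins by genomic span, placed at the median span of each bin (kb, log axis): left, the median log2 change, cisplatin minus solvent, in A549 (red squares, bars from the 10th to the 90th percentile of genes) and A549/cDDP (grey circles); right, the percent of genes in each bin that changed at least 2-fold in A549. The A549 median lies between 0.04 and 0.13 in the first 7 bins, below 0 in the last 3 and at -0.35 in the longest, where the share of 2-fold falls is 20.4%.

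Among the 139 coding genes of at least 500 kb, 106 fell and 10 rose, 71 fell at least 2-fold, and the median log2 change was -1.03. In A549/cDDP the median of these genes was -0.26, and the responses of the lines differed for 109 of the 139. Several of the largest falls are genes of this size: EXOC4, a subunit of the exocyst, spans 813517 bp and went from 76.7 and 76.2 to 7.86 and 6.7 FPKM (log2 change -3.31), GPC6, a glypican of 1180560 bp, from 5.56 and 5.44 to 0.181 and 0.119 (-3.21), and SPOCK1, a matrix proteoglycan of 623082 bp, from 9.36 and 8.51 to 0.511 and 0.464 (-3.25). SLIT3 and CDH4, above, span 639397 and 688192 bp. In the longest bin 36 genes rose at least 2-fold, C2orf88 among them. Other large falls were in genes of replication and division that span under 40 kb: PIF1, a DNA helicase (28.4 and 28.1 to 1.99 and 1.67 FPKM), the mitotic kinase PLK1 (161 and 164 to 16.4 and 15.8), the replicative helicase subunit MCM6 (111 and 112 to 12.7 and 12.6) and FAM111B, a protease (18.1 and 17.1 to 1.43 and 1.61).

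Letters of 9 motifs were counted in the promoters of the falling genes. A window of 250 bases before to 50 after the RefSeq start was at hand for 10474 of the coding genes (80.8%). The motif TTTGAA, on either strand, stood in 9.47% of these windows, in 21.5% of those of genes that fell at least 2-fold, and in 35.4% of those that fell at least 4-fold. Among falling genes of the longest span bin it stood in 11.8%. CCAAT, on either strand, was found in 36.5% of all windows, in 43.1% of genes that fell at least 2-fold and in 55.1% of those that fell at least 4-fold. Of the genes that fell at least 2-fold, it stood in 28.2% of those in the longest span bin and 51.2% of the others. The other 7 motifs differed by less than 3 percentage points between the genes that fell at least 2-fold and all genes. For rare motifs such as TGACTCA so small a gap can still be a large relative difference. On either strand, CACGTG stood in 7.85% of their windows against 9.88% of all, TGACTCA in 1.28% against 3.06%, TGACGTCA in 3.37% against 3.27%, GGGCGG in 69.4% against 69.9%, TTCNNGAA in 4.97% against 6.01% and the NF-kB consensus in 6.25% against 6.67%. TATAAA, on the coding strand alone, stood in 3.85% against 3.78%. Some gaps were wider among the 127 windows of genes that fell at least 4-fold. There GGGCGG stood in 64.6%, TTCNNGAA in 2.36%, the NF-kB consensus in 8.66% and CACGTG in 9.45%. TATAAA stood in 5.51% of them, TGACTCA in 0.787% and TGACGTCA in 4.72%. Of the genes that fell at least 2-fold, the NF-kB consensus stood in 9.09% of those in the longest span bin and 4.7% of the others. For genes that rose at least 2-fold only 77.8% had a window, under the 80% asked for, so that check is void and its shares are not given. A match describes letters, not a bound site. PLK1 is shown as a steep fall that holds both motifs; the 250 bases before its start (GRCh38.p14, chr16:23678639-23678888, plus strand, from RefSeq) follow 5′ to 3′ with TTTGAA and CCAAT in capitals.
PLK1: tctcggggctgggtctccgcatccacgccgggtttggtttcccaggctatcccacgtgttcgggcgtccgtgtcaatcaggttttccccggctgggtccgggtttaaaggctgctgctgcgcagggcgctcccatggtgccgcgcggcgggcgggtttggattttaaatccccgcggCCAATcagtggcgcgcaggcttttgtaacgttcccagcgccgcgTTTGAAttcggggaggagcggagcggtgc

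Aldehyde dehydrogenases held both the largest gain and the largest loss in level. ALDH3A1, an aldehyde dehydrogenase of corneal and tumour epithelium, gained more FPKM than any other called gene, from 1747 and 1692 to 5292 and 5230 (log2 change 1.61, limma adjusted p = 1.04e-10). ALDH1A1, a retinaldehyde dehydrogenase, lost the most, from 8388 and 8372 to 4813 and 4911 (-0.79). The family as a whole was balanced, with 9 of 24 aldo-keto reductases and aldehyde dehydrogenases higher and 8 lower. ALDH1A3, which also makes retinoic acid, rose from 16.9 and 17 to 52.3 and 50.9 FPKM. FTL, the ferritin light chain, fell from 6428 and 6300 to 4780 and 4605 FPKM (-0.44), and the actins ACTB and ACTG1 fell by 0.61 and 0.86 on the log2 scale. Of 40 cytochrome P450 and conjugation genes 12 rose and 15 fell, with CYP4F3 (1.66) and CYP2S1 (1.53) among the rises.

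Glycolysis and pentose phosphate genes fell more often than they rose, 20 against 9 of 35 (median -0.22). Against this, PFKFB4, which sets the level of fructose 2,6-bisphosphate, rose from 13 and 12.5 to 74.9 and 68.5 FPKM (2.44), and TIGAR, a phosphatase of the same metabolite, from 37.6 and 39 to 152 and 155 (1.99). Serine, one-carbon and nucleotide synthesis genes fell in 19 of 32 cases and rose in 6. SHMT1, a serine hydroxymethyltransferase, and PHGDH, the first enzyme of serine synthesis, fell by 1.10 and 1.04 on the log2 scale.

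Sterol genes were split between enzymes: 6 of 26 rose and 12 fell. TM7SF2, a sterol reductase, went from 9.51 and 9.56 to 72.4 and 71 FPKM (log2 change 2.85, limma adjusted p = 9.55e-12), HSD17B7 rose by 1.64, and EBP and INSIG1 fell by 0.93 and 0.95. Of 34 fatty acid and lipid droplet genes 14 rose and 14 fell, among them LPIN3, a phosphatidate phosphatase, up from 12.5 and 11.9 to 71.4 and 69.9 FPKM, and the desaturase SCD, down from 60.8 and 59.4 to 25.4 and 23.9. Polyamine genes numbered 6 up and 6 down of 14. The acetyltransferase SAT1, which starts polyamine breakdown, rose from 157 and 151 to 658 and 657 FPKM (2.09), and SMS, spermine synthase, fell from 232 and 237 to 140 and 147.

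Transporters and channels held some of the largest single rises but no common direction. Of 212 solute carriers 64 rose and 78 fell (median -0.04). SLC4A11, a borate and water transporter family member, rose from 4.6 and 5.07 to 28.5 and 26.1 FPKM, the mitochondrial carrier SLC25A45 from 6.49 and 5.88 to 30.9 and 31.8, and the zinc transporter SLC39A11 fell from 28.9 and 27.1 to 6.85 and 7.01. Of 87 ion channel genes 26 rose and 24 fell, with GRIN3B (2.76), SCN3B (2.73) and ORAI3 (2.19) next to GRIN2C; 52.9% of the exon bases of ORAI3 overlap another gene model, listed at 0. Of 44 aquaporins, ATPases and proton pumps 24 rose and 13 fell.

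Mitochondrial transcripts gained share. Genes of the mitochondrial chromosome held 7.62% and 7.56% of the summed FPKM in solvent and 9.03% and 8.72% in cisplatin. The large ribosomal RNA MT-RNR2 rose from 5635 and 5726 to 8985 and 9081 FPKM (log2 change 0.67, limma adjusted p = 5.77e-07). Of 13 mitochondrially encoded protein genes 2 rose, MT-CO1 (0.32) and MT-ND1 (0.25), and 0 fell. The change of MT-CO1 was 0.27 without cisplatin replicate 1. With quantile normalization it was 0 and did not pass. That scaling gives genes of the same rank the same value in every library. A change of 0 for this very abundant gene thus means no more than an unchanged rank. Of 78 nuclear genes of oxidative phosphorylation 29 rose and 3 fell with a median of 0.14, which was 0.08 with median ratio scaling, where 19 rose and 8 fell. SDHA, a subunit of succinate dehydrogenase, rose from 110 and 112 to 188 and 192.

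Ribosome and RNA processing genes parted ways. Of 84 cytosolic ribosomal protein genes 39 rose and 5 fell (median 0.15); the number that rose was 20 with median ratio scaling and 56 with quantile normalization. Only RPS27L, a paralog of RPS27, rose at least 2-fold (138 and 133 to 461 and 508 FPKM) and only RPL22L1 fell that far (101 and 106 to 27.7 and 30.5). Ribosome biogenesis genes fell in 28 of 55 cases and rose in 11, and the nucleolar genes UBTF and NPM1 fell by 0.91 and 0.85. Spliceosome and SR protein genes fell in 45 of 87 cases and rose in 14 (median -0.18), with SRSF2 down from 285 and 297 to 148 and 139 FPKM and TRA2B from 113 in both libraries to 60.7 and 60.2. MFSD11 overlaps 36.7% of the exon bases of SRSF2 on the other strand, at 14.5 FPKM at most. For mitochondrial ribosomal proteins 27 of 77 rose and 22 fell, a majority that turned to 17 and 28 with median ratio scaling. For tRNA synthetases 12 of 37 rose and 13 fell, among them SARS1 up from 66.1 and 66.3 to 197 and 203 FPKM and FARS2 down from 12.2 and 10.1 to 3.05 and 2.74. For RNA polymerase II and elongation genes the numbers were 27 up and 11 down of 61, and 23 up and 17 down with median ratio scaling. TCEA3 and ELL rose by 2.14 and 1.10 on the log2 scale. SUPT3H, whose gene spans 568637 bp, was lower (2.21 and 2.27 to 0.198 and 0.165 FPKM).

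Stress lists held a few steep rises. In the ATF4 and ER stress list 11 of 33 rose and 18 fell, with a median of -0.28. DDIT3, the CHOP transcription factor, went from 4.71 and 4.78 to 82.8 and 83.7 FPKM (log2 change 4.0, limma adjusted p = 2.17e-11). MARS1 overlaps 31.6% of its exon bases on the other strand and stood at up to 212 FPKM, so some of these reads may belong to MARS1. NUPR1, a stress-induced chromatin protein, rose from 1.33 and 1.45 to 18.1 and 18.5 FPKM (3.31), SESN2, a sestrin, from 3.02 and 2.8 to 25.2 and 25.5 (2.92), and CHAC1, which degrades glutathione, from 0.725 and 0.775 to 6.07 and 5.68 (2.35). Heat shock and chaperone genes were mixed, 24 up and 29 down of 75, with HSPA4L (1.86) and HSPB8 (1.70) higher. Of 77 lysosome and autophagy genes 37 rose and 24 fell, 10 and 1 at least 2-fold; LAMP3 went from 0.255 and 0.184 to 6.15 and 5.55 FPKM, DRAM1, a p53-induced membrane protein of lysosomes, from 35 in both libraries to 145 and 142, and GM2A, the ganglioside activator, from 21.4 and 20.1 to 79 and 78.6.

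Matrix and cytoskeleton genes changed strongly on both sides. Of 52 collagen, laminin and related matrix genes 21 rose and 22 fell, 7 and 7 at least 2-fold. Without 1 member that passed the level filter only through the A549 cisplatin libraries, 20 of 51 rose and 22 fell. COL9A2 stood at 0.0759 and 0 FPKM in solvent and 6.46 and 7.08 in cisplatin. Its mean was also below the 0.5 FPKM of that filter in A549/cDDP (0.209 in solvent, 0.159 in cisplatin), so its call may lean on the group where it is high. COL17A1, a hemidesmosome collagen, rose from 2.31 and 2.42 to 13.3 and 13. Matrix proteases and inhibitors numbered 13 up and 19 down of 43. ADAMTS7 rose from 2.75 and 2.68 to 30.4 and 29.6 FPKM (3.25), and ADAM12 fell from 4.6 and 5.7 to 0.174 and 0.278 (-2.96). Actin, myosin and intermediate filament genes fell in 27 of 47 cases and rose in 13. LMNB1, lamin B1 of the nuclear lamina, fell from 95.6 and 98.1 to 13.4 and 14 FPKM (-2.78), and ACTA2, smooth muscle actin, rose from 5.09 and 4.8 to 45 and 40.6 (2.99), with 30.1% of its exon bases shared with ACTA2-AS1, at 1.06 FPKM at most. Tubulins and microtubule proteins fell in 22 of 42 cases and rose in 11, with TUBB down from 600 and 613 to 217 and 210 FPKM and STMN1 from 130 and 125 to 44.4 and 44.2.

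Zinc finger genes were higher more often than lower. Of 401 genes with ZNF symbols 208 rose and 48 fell, with a median log2 change of 0.24, which was 0.19 with median ratio scaling and 0.14 with quantile normalization. Few of them moved far: 20 rose and 2 fell at least 2-fold. ZNF385A, a partner of p53, rose from 13.8 and 12.1 to 94.5 and 91.4 FPKM (2.80), and ZNF367 fell from 9.65 and 9.9 to 1.35 in both libraries (-2.47). SOX, HOX and GATA factors numbered 14 up and 7 down of 46, with HOXC13, a hair and nail factor, up from 4.88 and 5.31 to 20.2 and 19.1 FPKM and GATA3 from 2.15 and 2.4 to 6.79 and 6.93; the median of this list was 0.09 and changed sign with quantile normalization, to -0.04. KLF and SP factors counted 7 up and 8 down of 19, with KLF2 down from 12.9 and 11.4 to 4.38 and 4.05 FPKM. FOX factors counted 6 up and 11 down of 25, with the mitotic regulator FOXM1 down from 84.5 and 85.4 to 21.4 and 20.1 FPKM. Nuclear receptors were at 11 up and 13 down of 33, led by NR0B1, up from 32.5 and 30.5 to 93.4 and 91.8 FPKM. Circadian genes were at 6 up and 7 down of 18, with PER1 and PER2 higher by 1.06 and 1.13. Chromatin modifiers were at 42 up and 36 down of 100, UHRF1, which guides maintenance DNA methylation, falling from 46.5 and 47.7 to 7.06 and 7.71 FPKM and the demethylase KDM4B rising from 5.84 and 5.51 to 22.5 and 21.6. Ubiquitin ligases and deubiquitinases were at 86 up and 53 down of 206, with FBXO2, a receptor for glycoproteins, up from 4.24 and 4.11 to 32.6 and 33 FPKM.

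Among noncoding classes, calls were fewer and more of them were higher than lower. Coding genes were higher in 36.6% and lower in 32.7% of cases. Antisense genes (1500) were higher in 20.9% and lower in 9.47%, long intergenic noncoding genes (839) in 27.7% and 12.0%, and transcribed unprocessed pseudogenes (246) in 36.2% and 12.6%. Whether counting used strand is not given in the sources used here, and without it the reads of an antisense gene and its partner cannot be told apart. Not every gene moved: 6805 of those tested did not pass, and among genes of at least 50 FPKM the smallest differences were in DHX36, RAP1B, MAP7D1, MRPS21 and SUCLG1.

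Genes that changed at least 2-fold in A549 mostly changed less in A549/cDDP. The difference of the responses passed for 8088 genes (47.0%). Among the 1258 genes higher by 2-fold or more in A549 it passed for 1210, and in all 1210 the response of A549/cDDP was smaller or opposite; 173 of the 1258 rose there too. It passed for 825 of the 857 genes that fell at least 2-fold, 350 of which also fell in A549/cDDP. Both sets were chosen by their change in A549, which the difference itself contains, so a smaller response in A549/cDDP was favoured beforehand. Genes chosen by their change in A549/cDDP were not compared in this way. For 1105 of the 1258 genes the solvent mean was higher in A549/cDDP than in A549, and for 140 of the 857 genes that fell. The choice by change in A549 favours both counts, and the share over all genes is not given here. A small response in A549/cDDP need not mean a low level. CD82 stood at a mean of 58.3 FPKM in solvent and 59 in cisplatin in A549/cDDP, and GRIN2C at 27 and 31.1. SLC52A1 was low in both, at 0.241 and 0.296 FPKM. The median log2 changes of the cytokine and interferon lists in A549/cDDP were 0.04 and 0.02. A549/cDDP cells had been kept in cisplatin beforehand, which the labels tie to the line, so line and earlier exposure cannot be told apart.

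Of 1205 genes that passed in both lines, 1015 moved the same way and 190 in opposite directions, 80 of these higher in A549 and 110 lower. The genes named next were chosen after their values were seen, as opposite in direction, at least 2-fold in A549 and at least 5 FPKM there; 24 genes met this. FOS, an immediate early transcription factor, stood at 54.8 and 47.7 FPKM in A549 in solvent and 13.1 and 10.7 in cisplatin, and at 0.593 and 0.692 and then 8.66 and 5.56 in A549/cDDP. EGR1, of the same class, ran from 23.2 and 18.8 to 6.41 and 5.15 FPKM in A549 and from 0.395 and 0.393 to 3.83 and 2.99 in A549/cDDP. In both genes the solvent levels of the lines were far apart and the cisplatin levels closer together. C3, the central complement component, rose from 67.7 and 63.8 to 296 and 286 FPKM in A549 and fell from 388 and 380 to 323 and 331 in A549/cDDP. LCN2, the iron-binding lipocalin 2, rose from 7.86 and 6.79 to 23.1 and 25.9 FPKM and fell from 10.3 and 9.24 to 4.31 and 3.82. KITLG, the ligand of KIT, rose from 19.1 and 19.4 to 74.2 and 75.6 FPKM and fell from 57.8 and 59.8 to 53 and 48.7.

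**Figure D5:**
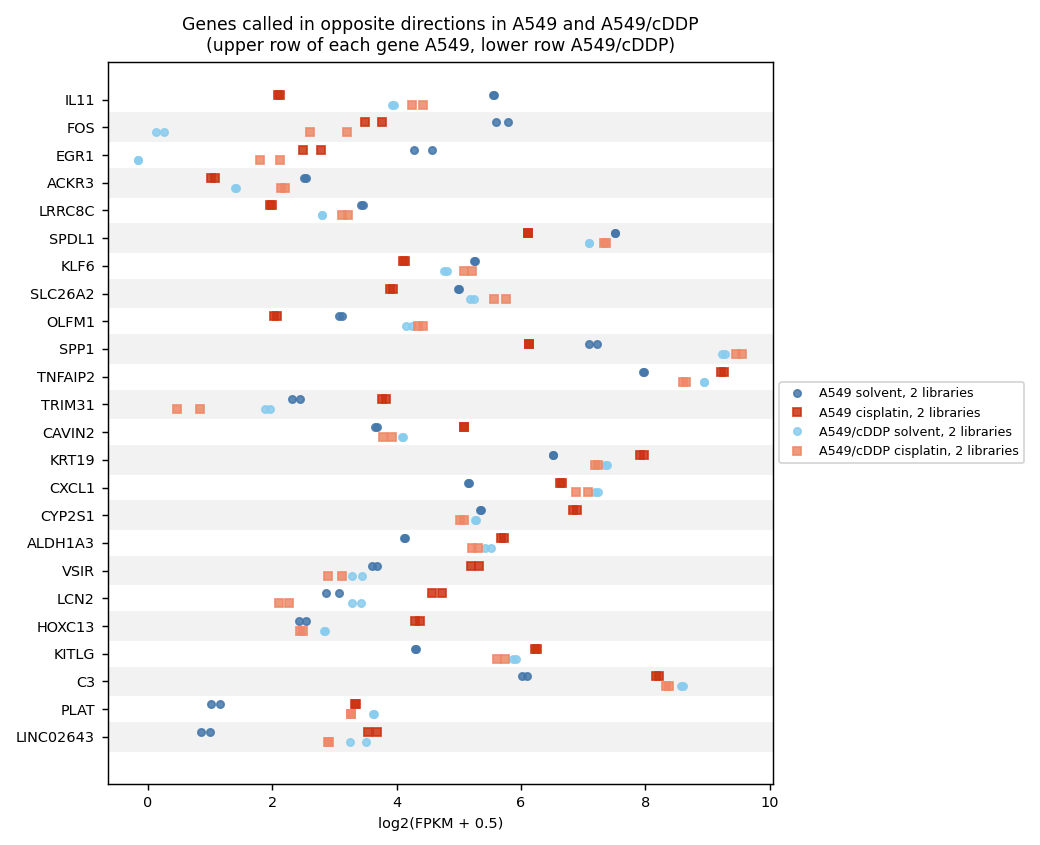
The 24 genes that passed in opposite directions in the lines, at least 2-fold and with at least 5 FPKM in A549, each library as a point on a log2(FPKM + 0.5) axis; the upper row of a gene is A549 and the lower row A549/cDDP, circles are solvent and squares cisplatin. From IL11 to SPP1 the squares lie left of the circles in A549 and right of them in A549/cDDP, and from TNFAIP2 down the order is turned around.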

How the data were processed

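The deposited values are FPKM per gene and library, 60448 identifiers, made by the authors. The submitters' processing notes name TopHat2, HTSeq 0.6.1 and build hg38; the annotation release is not given in the sources used here. GENCODE 29 held a model for 56868 identifiers and gave symbols, positions and spans. Fragment totals were recovered from low FPKM values: 70.5% to 71.9% of those under 10 reads in the A549 libraries were whole read numbers within 0.02 reads, so floors of 3 reads are approximate.

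The test took genes whose mean over the 16 libraries reached 0.5 FPKM (17198). It was run on log2(FPKM + 0.5) in 1 limma model (3.58.1, R 4.3.3) with 8 groups of 2 libraries, 8 residual degrees of freedom, a trended prior and Benjamini-Hochberg adjustment over all genes, two-sided. Tested on simulated data (17198 genes, 200 changed), the model recovered for this comparison 81% of genes at a log2 change of 0.5 and 92% at 1, with 2.99% and 4.66% of calls false. The changed genes were drawn from those above 1 FPKM in A549 solvent, and the noise was normal and independent. In the data 60.4% of genes passed, so these rates need not hold for them or for low genes.

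The 55 gene lists and the other choices were made with earlier results of these data known. Besides the squamous and acute phase lists, some others held members that passed the level filter only through the A549 cisplatin libraries. These were 2 ion channel genes and 1 gene each of the Wnt, solute carrier, aquaporin, heat shock and collagen lists. A rise in any of them is no test. Named genes are the 12 largest rises and 12 largest falls of at least 5 FPKM without overlap, the 5 largest FPKM gains and 5 losses, up to 4 called genes per list of at least 1 FPKM, CDKN1A and MDM2, genes at 0 in 1 group and at least 1 FPKM in the other, and the 5 steadiest of at least 50 FPKM. Alternatives covered scaling, pseudocount, filter, libraries in the fit, replicate block, prior and leaving out each library. A few named genes and 1 list are not reported here.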

Additional observations from a re-analysis of the deposited data

Results flagged for a closer look

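The responses of A549 and A549/cDDP differed, by the test of the difference itself in the limma model, for 8088 genes, for 227 of the 237 named genes, and 190 genes passed in both lines with opposite signs. Most named genes were chosen by their change in A549, which the difference contains, so a difference was favoured beforehand. The values below are the log2 response of A549/cDDP minus that of A549.

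LCE1F passed the level filter only through the A549 cisplatin libraries, so it had to differ. SLC52A1 was below the 0.5 FPKM of that filter in every other untransfected group, so its difference leans on the same libraries. Among the largest rises of A549 the difference was -6.11 for SLC52A1, -4.98 for NECTIN4, -5.30 for GRIN2C, -5.00 for CEACAM1, -4.49 for HES2 and -4.56 for LCE1F. It was -4.22 for PLXNB3, -4.70 for CD82, -4.26 for C2orf88, -3.24 for LINC01629, -4.33 for GRHL3 and -3.90 for YPEL3. Among the largest falls it was 3.58 for SLIT3, 2.92 for PIF1, 3.84 for IL11, 2.87 for EXOC4, 2.65 for PLK1 and 3.14 for CDH4. It was 3.43 for SPOCK1, 2.60 for NTRK3, 2.15 for GPC6, 2.66 for FAM111B and 2.77 for MCM6. For ENSG00000278047, whose solvent libraries in A549 stood far apart, it was 8.99.

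Among genes of opposite sign the difference was 4.78 for FOS, 3.90 for EGR1 and 2.26 for ACKR3, all lower in A549. It was -2.68 for TRIM31, -2.84 for LCN2, -2.14 for KITLG, -2.37 for C3 and -2.61 for PLAT, all higher in A549.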

How the results depend on the processing

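Counts of genes past the threshold stayed within 1.5 times their value under every alternative run; without 1 A549 library in turn they ranged from 9167 to 9287 called, and the lone library left in a group is then assumed to vary like the other groups. Of 237 named genes, 232 kept direction and call throughout. ENSG00000278047 lost its call without a filter and without solvent replicate 2 or either cisplatin replicate. MT-CO1, NDUFA7 and PAOX lost theirs with quantile normalization and without single libraries, and COL1A1 without single libraries. For MT-CO1 quantile normalization is no check, since it gives genes of the same rank the same value in every library. The cause of the other losses was not tested. The median of the longest minus that of the shortest span bin was -0.44. With alternatives chosen after seeing the data, it was -0.50 with a pseudocount of 0.1, -0.38 with 1 and -0.47 with the level filter over the A549 libraries, and -0.45 to -0.42 without 1 library in turn. With the replicate number as a block 10325 genes passed and 7978 differed between the lines; no named gene lost its call. Deviations of same-numbered libraries correlated across genes at 0.025 between A549 groups and from -0.073 to 0.119 over all pairs of groups. No strong pairing by replicate number was seen, but these correlations cannot exclude a weak one. Sets of 2 libraries limit the precision, and depth leaves genes of a few reads unresolved.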
